A study of Mus musculus with 24 samples.

Results

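The genes described here are the Wnt ligands, their receptors and co-receptors, their secreted antagonists, the R-spondins and 3 genes of the nuclear response, measured by RNA-Seq in 2 vessels of late-gestation mouse embryos (E18.5), the ductus arteriosus (DA) and the ascending aorta. They were taken by name, as protein-coding genes with a Wnt, Fzd, Sfrp, Dkk or Rspo symbol together with Frzb, Wif1, Lrp5, Lrp6, Axin2, Lef1, Tcf7, Ror1 and Ror2, and there are 50 of them among 54752 listed genes. The DA is the fetal vessel that carries blood from the pulmonary artery past the lungs into the aorta and closes after birth. Prdm6, a PR domain zinc finger protein of smooth muscle cells, was deleted in the neural crest, which gives rise to the smooth muscle of both vessels. The 5 Prdm6-deficient DA samples and the 5 Prdm6-deficient aorta samples were Wnt1Cre;PRDM6f/f, and the Cre in them is driven by the Wnt1 promoter. The 7 control DA samples were 5 PRDM6wt/f and 1 PRDM6wt/wt without Cre and 1 Wnt1Cre;PRDM6wt/wt (replicate 2), and the 6 control aorta samples were 5 PRDM6wt/f without Cre and 1 Wnt1Cre;PRDM6wt/wt (replicate 3). All lines were on a C57BL/6 background, and 6 control animals gave both vessels. Of the Prdm6-deficient libraries, 3 from the DA (replicates 2, 5 and 7) and 4 from the aorta (replicates 1, 2, 3 and 5) also came from the same embryos. Prdm6-deficient DA replicates 1 and 2 were pools of 2 embryos each, and replicate 4 of that group was not analysed here, which leaves 23 of 24 samples. By their animal numbers the embryos fall into a first and a second series. In the DA these held 2 and 5 control libraries and 3 and 2 Prdm6-deficient libraries. In the aorta they held 1 and 5 control libraries and 2 and 3 Prdm6-deficient libraries.

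Wnt proteins are secreted, lipid-modified ligands that bind Frizzled receptors. With the co-receptors Lrp5 and Lrp6 they stabilize beta-catenin, which then activates genes together with TCF/LEF factors, and with Ror1 and Ror2 they act on cell polarity and movement without beta-catenin. Secreted frizzled-related proteins (Sfrp and Frzb) and Wif1 bind the ligands, Dickkopf proteins such as Dkk1 and Dkk2 bind Lrp5 and Lrp6, and R-spondins raise the number of receptors at the cell surface. In development the pathway is known for its part in neural crest formation and in the outflow tract of the heart.

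Levels are given as CPM, the count of a gene scaled to the size of its library, and levels of different genes are compared only as CPM per kilobase of exon. Total counts per library ran from 15163974 to 22610547, so that by these totals 3 counts stood for 0.133 to 0.198 CPM. The CPM values below were also scaled between libraries (TMM), so that 3 counts can stand for a somewhat different value in them. Prdm6 itself was at 58.6 to 78.5 CPM in Prdm6-deficient DA and 84.9 to 128 CPM in control DA, and at 61.9 to 81.2 CPM in Prdm6-deficient aorta and 95.6 to 135 CPM in control aorta. The 6 smooth muscle markers examined (Myh11, Acta2, Cnn1, Tagln, Mylk and Myocd) were above 3 counts in every library. Their summed level was 13004 to 22872 CPM in control DA against 9415 to 11504 CPM with Prdm6 deficiency, and 4 of the 6 fell in that comparison. Of the 6 melanocyte markers (Dct, Tyrp1, Pmel, Tyr, Mlana and Mitf), 4 fell with Prdm6 deficiency in the DA, and Tyr was at 0 in all 5 Prdm6-deficient DA libraries. Their sum was 32.2 to 229 CPM in control DA against 2.44 to 4.96 CPM with Prdm6 deficiency, and 2.17 to 14.8 CPM in control aorta, with the highest aortic value in replicate 4. The 6 summed Schwann cell markers were at 12.9 to 172 CPM in control DA against 53.0 to 115 CPM with Prdm6 deficiency, and 0 of the 6 were called in that comparison. In the aorta 3 of the 6 endothelial markers rose with Prdm6 deficiency, and their sum was 803 to 1077 CPM against 510.2 to 847 CPM in control aorta. The 6 fibroblast markers summed to 2446 to 4686 CPM in control DA and 3959 to 4781 CPM with Prdm6 deficiency. In the aorta the fibroblast sum was 3857 to 4840 CPM in control and 3131 to 4026 CPM with Prdm6 deficiency. In each vessel 1 of these 6 was called higher. The cardiomyocyte sum was 24.0 to 1074 CPM (median 94.4) in control DA, highest in replicate 1, with 0 of 6 called. Between the aortic groups the sums of 3 lists did not overlap, while the endothelial sums did. The neuronal markers were at 40.1 to 81.2 CPM with Prdm6 deficiency against 18.7 to 29.4 CPM in control aorta, with 1 of 6 called higher. The macrophage markers were at 69.2 to 108 CPM against 119 to 236 CPM, and those of mesothelium and epithelium at 18.0 to 41.7 CPM against 42.2 to 129.8 CPM, with 0 of 6 called in either list. The part of these cell types in the differences described below was not tested, and in whole vessels fewer cells of a type and less RNA per cell cannot be told apart.

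Of the 50 genes, 38 had enough counts to be tested and 12 did not. Wnt3a, Wnt8a, Wnt8b, Dkk4 and Rspo4 had 0 counts in every library, and 9 genes, these 5 included, never had more than 3 counts. Wnt1 was among the untested genes and reached at most 0.647 CPM, in Prdm6-deficient aorta replicate 3. The secreted antagonists were the most abundant group per kilobase. In control DA, Sfrp2 was at 824 CPM per kb, Sfrp1 at 206 and Dkk3 at 130, against 74.2 CPM per kb for Fzd1, the most abundant receptor, 24.6 for Ror1 and 8.77 for Wnt9a. The summed level of the 10 antagonists in control DA was 1180 CPM per kb, and that of the 19 ligands was 27.5 CPM per kb.

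The first comparison asked how Prdm6 deficiency changed these genes in the DA. The secreted antagonists Frzb and Dkk2, the agonist Rspo3, the ligand Wnt16 and the receptor Fzd8 rose. So did Dkk3, which is counted with the antagonists here by family name only. The antagonists Sfrp1 and Sfrp2, the ligands Wnt9a and Wnt10b, the receptors Fzd5 and Fzd7 and the co-receptor Ror2 fell. A gene was called at an adjusted p below 0.01 by the edgeR quasi-likelihood test and a log2 change of more than 0.5 in size. By this rule 6 of 38 tested Wnt genes rose and 7 fell, beside 5.43% of all 16463 tested genes called (2.61% higher and 2.82% lower). The groups did not overlap for 14 of the 38, beside 5.66% of all tested genes. The median log2 fold change of the 38 was -0.03, and that of all tested genes 0.01. Several called genes varied together among the control DA libraries. Replicates 3, 5 and 7 were above replicates 1, 2, 4 and 6 for Sfrp1 (1073 to 1289 against 664 to 792 CPM) and Frzb (43.2 to 49.0 against 23.5 to 27.1 CPM). Sfrp2 and Fzd5 split in the same way, while Wnt9a and Ror2 did not. The values of these genes are thus not independent of one another, and the cause was not tested.

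In the aorta the Wnt genes called in the edgeR fit across all 4 groups were all higher with Prdm6 deficiency. Rspo3, Rspo2, Frzb, Dkk1, Dkk2, Fzd8, Lrp5, Ror1 and Ror2 rose. In this fit 0 of 38 were called lower, and 15 of the 38 had an unadjusted p under 0.05 in either direction. Other settings did call genes lower. DESeq2 called 3 lower, and edgeR called 3 lower with only the aorta libraries in the fit. At an adjusted p below 0.05 without a fold limit 3 were lower. Without the filter on low counts 1 was called lower, and without the pooled samples also 1. The 9 called genes stand beside 2.45% of all genes called in the aorta (1.63% higher and 0.826% lower), and the groups did not overlap for 11 of the 38, beside 6.95% of all tested genes. The median log2 fold change of the 38 was 0.33, also with Dkk1 at its lower bound, and that of all tested genes was -0.00. Without Prdm6-deficient aorta replicate 3, and without control aorta replicate 3 with the other Cre-carrying control, 5 genes were called.

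**Figure D1:**
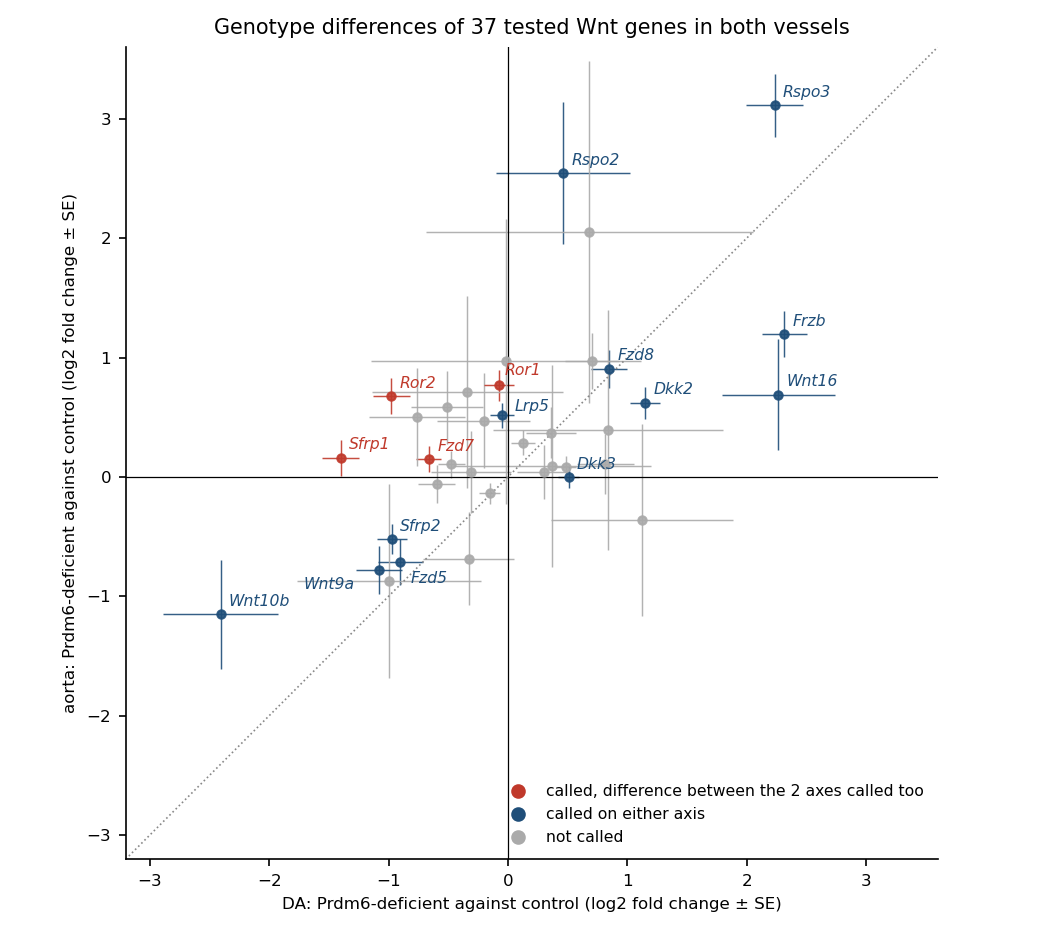
Log2 fold change of Prdm6-deficient against control in the DA (horizontal axis) and in the aorta (vertical axis) for 37 tested Wnt genes, each with its SE. Dkk1 is left out because control aorta had 0 counts. Rspo3 and Frzb lie high on both axes, and Sfrp1, Ror2, Ror1 and Fzd7, whose difference between the vessels was called, lie above the dotted line of equal change.

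Among the ligands, Wnt9a and Wnt10b fell in the DA and Wnt16 rose. Wnt9a, which acts in joint development, was at 7.67, 14.8, 9.21, 15.9 and 21.4 CPM in Prdm6-deficient DA replicates 1, 2, 5, 6 and 7, and between 25.1 and 39.9 CPM (median 28.0) in control DA. Every Prdm6-deficient library was below every control library (log2 fold change -1.08 ± 0.20 SE, adjusted p = 3.2e-04 by edgeR). The log2 fold change was -1.45 for animals of the first series and -0.70 for those of the second, the latter with an adjusted p of 0.15 by edgeR.

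Wnt10b, known for its part in fat and bone formation, was between 0.137 and 1.32 CPM in Prdm6-deficient DA and between 1.76 and 8.29 CPM in control DA (log2 fold change -2.41 ± 0.48 SE, adjusted p = 9.7e-04 by edgeR). Wnt16, a ligand known from bone, was at 12.9, 18.9, 7.33, 12.3 and 18.5 CPM in Prdm6-deficient DA and from 0.0556 to 6.96 CPM (median 1.54) in control DA. This was a 4.81-fold difference without overlap (adjusted p = 0.0014 by edgeR), and the control libraries spread widely on the log scale. The calls of Wnt10b and Wnt16 were lost when only DA libraries entered the fit, without the pooled samples, and within either series alone.

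In the aorta 0 of 10 tested ligands were called in the edgeR fit across all 4 groups, with 3 at an unadjusted p under 0.05. Wnt9a was at 11 to 18.9 CPM in Prdm6-deficient aorta and 20.6 to 26.4 CPM in control aorta, without overlap, at a log2 fold change of -0.78 (adjusted p = 0.017 by edgeR). Wnt5b, the most abundant ligand over all libraries, was at 25.4 to 45.4 CPM in Prdm6-deficient DA and 6.84 to 33.8 CPM in control DA, which overlap (adjusted p = 0.024 by edgeR). Wnt11 was at 11.7 to 25.4 CPM in Prdm6-deficient aorta and 4.94 to 12.9 CPM in control aorta, which overlap (log2 fold change 0.97, adjusted p = 0.0103 by edgeR). In the aorta Wnt5b was at 22.6 to 36.2 CPM with Prdm6 deficiency and 21.2 to 34.2 CPM without.

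**Figure D2:**
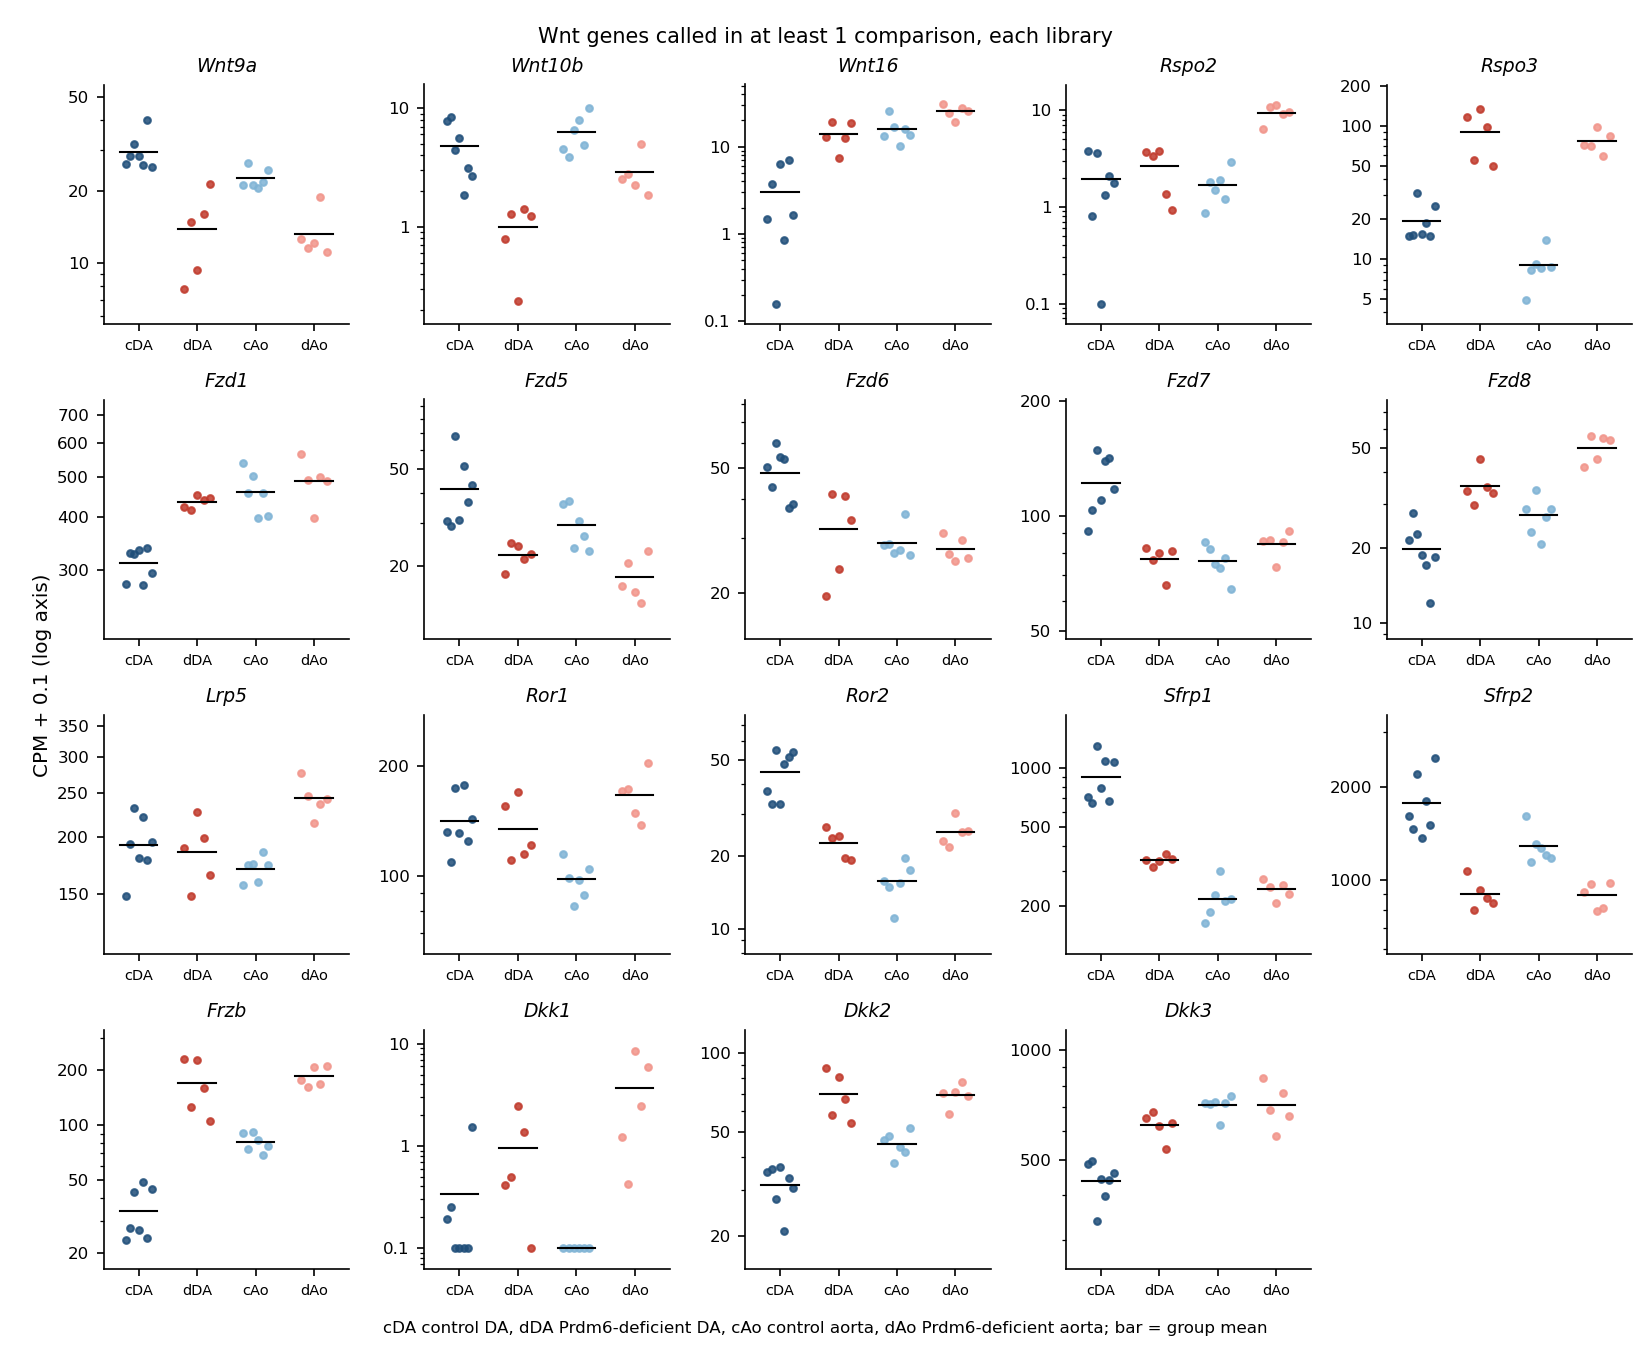
Level of the 19 Wnt genes called in at least 1 comparison, as CPM + 0.1 on a log axis, 1 point per library and a bar at the group mean. Rspo3, Frzb and Dkk2 are higher in the Prdm6-deficient libraries of both vessels, and Sfrp1 and Ror2 are highest in control DA.

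Rspo3 rose in both vessels. This R-spondin of developing vessels, on chromosome 10 (29452416 to 29535867, mm10), was at 116, 55.3, 133, 97.3 and 49.9 CPM in Prdm6-deficient DA replicates 1, 2, 5, 6 and 7, and between 14.7 and 31.1 CPM (median 15.3) in control DA. The aortic levels were 71.5, 70.4, 98.0, 58.9 and 84.0 CPM in the 5 Prdm6-deficient libraries and between 4.85 and 13.8 CPM (median 8.51) in control. The groups were apart in both vessels, with a 4.70-fold increase in the DA (adjusted p = 2.0e-07) and an 8.65-fold increase in the aorta (adjusted p = 5.7e-09, both by edgeR). In the DA the Prdm6-deficient libraries of the first series (replicates 1, 5 and 6) were all above those of the second (2 and 7), and the log2 fold change was 2.32 for the first series alone and 1.56 for the second. In the aorta it was 3.10 and 3.09.

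Rspo2, an R-spondin of limb and lung development, was at 6.36, 10.6, 11.2, 9.07 and 9.51 CPM in Prdm6-deficient aorta and between 0.757 and 2.83 CPM in control aorta. This 5.83-fold difference without overlap passed the threshold narrowly (adjusted p = 0.0085 by edgeR) and was called in 12 of 23 fits that left out 1 library. The call was also lost with the replicate block, with series as a covariate, within the second series, without pooled samples and without Cre-carrying controls. In the DA Rspo2 was at 0.834 to 3.71 CPM with Prdm6 deficiency and 0 to 3.67 CPM without. The summed level of the 4 R-spondins was 10.2 ± 2.63 CPM per kb (SD, n = 7) in control DA and 31.5 ± 10.6 CPM per kb (n = 5) in Prdm6-deficient DA. In the aorta it was 4.18 ± 0.459 CPM per kb (n = 6) in control and 27.2 ± 4.86 CPM per kb (n = 5) with Prdm6 deficiency.

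The Frizzled receptors moved in both directions in the DA. Fzd7, a receptor of progenitor cells, was at 82.2, 76.4, 79.8, 65.7 and 80.7 CPM in Prdm6-deficient DA and between 91.2 and 149 CPM (median 118) in control DA. The groups did not overlap, and the level was 1.58-fold lower (adjusted p = 5.2e-05 by edgeR). Fzd5 was at 18.5 to 24.7 CPM in Prdm6-deficient DA and 29.2 to 68.2 CPM in control DA (log2 fold change -0.90 ± 0.19 SE, adjusted p = 0.0015 by edgeR). The call of Fzd5 was lost without the pooled samples (log2 fold change -0.88), and within either series alone the DA calls of Fzd5, Fzd7 and Fzd8 were lost, with the sign kept.

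Fzd8 rose in both vessels. It was at 29.4 to 45.1 CPM in Prdm6-deficient DA against 11.9 to 27.3 CPM in control DA, and at 41.9 to 55.8 CPM in Prdm6-deficient aorta against 20.6 to 34.0 CPM in control aorta. Neither pair of groups overlapped, and the fold was 1.80 in the DA (adjusted p = 3.1e-04) and 1.87 in the aorta (adjusted p = 4.4e-04, both by edgeR). Fzd1, the most abundant Frizzled, lay just below the fold limit in the DA and was not called. It was at 424, 417, 453, 439 and 444 CPM in Prdm6-deficient DA and between 277 and 338 CPM in control DA, without overlap, at a log2 fold change of 0.48 (adjusted p = 1.3e-04 by edgeR).

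Of the 4 co-receptors Ror2 fell in the DA, and Ror1, Ror2 and Lrp5 rose in the aorta. Ror2, a receptor tyrosine kinase for Wnt5a on chromosome 13 (53109312 to 53286124), was at 26.4, 23.7, 24.2, 19.7 and 19.2 CPM in Prdm6-deficient DA and between 32.9 and 54.7 CPM (median 48.3) in control DA. In the aorta it was at 23, 21.8, 30.1, 25.1 and 25.5 CPM with Prdm6 deficiency and between 11 and 19.6 CPM (median 15.6) without. The groups did not overlap in either vessel, and the level was 1.97-fold lower in the DA (adjusted p = 4.9e-05) and 1.6-fold higher in the aorta (adjusted p = 0.0068, both by edgeR). The aortic call was made in 15 of 23 fits that left out 1 library. The log2 fold change was 1.32 within the first series, which holds 1 control aorta library, and 0.49 within the second (adjusted p = 0.10 and 0.25 by edgeR).

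Ror1, the related kinase, was at 138 to 203 CPM in Prdm6-deficient aorta and 82.9 to 115 CPM in control aorta, a 1.70-fold increase (adjusted p = 2.6e-04 by edgeR). In the DA it was at 111 to 170 CPM and 109 to 177 CPM, which overlap. Lrp5 was at 215 to 277 CPM in Prdm6-deficient aorta and 157 to 185 CPM in control aorta, and its log2 fold change of 0.51 lies at the fold limit (adjusted p = 0.0018 by edgeR) and was called in 20 of 23 fits that left out 1 library. Lrp5 was at 148 to 227 CPM in Prdm6-deficient DA and 149 to 232 CPM in control DA. Lrp6, its partner, lay just below the fold limit in the DA (log2 fold change -0.47, adjusted p = 0.0044 by edgeR) and was not called.

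The secreted antagonists held 5 of the 13 genes called in the DA. Frzb, which binds Wnt ligands and lies on chromosome 2 (80411970 to 80447625), was at 229, 125, 228, 160 and 106 CPM in Prdm6-deficient DA and between 23.5 and 49.0 CPM (median 27.1) in control DA. Its aortic levels were 176, 162, 209, 168 and 210 CPM against 68.6 to 92.1 CPM in control. No library overlapped in either vessel, and the level was 4.98-fold higher in the DA (adjusted p = 2.7e-09) and 2.29-fold higher in the aorta (adjusted p = 1.7e-04, both by edgeR). The first-series Prdm6-deficient DA libraries (160 to 229 CPM) were above the second-series ones (106 and 125 CPM), and the log2 fold change was 2.54 and 1.76 within these series.

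Sfrp1, a soluble decoy receptor on chromosome 8 (23411502 to 23449632), was at 340, 314, 337, 366 and 344 CPM in Prdm6-deficient DA and between 664 and 1289 CPM (median 792) in control DA. Every Prdm6-deficient library was below every control library, at a 2.64-fold lower level (adjusted p = 2.4e-07 by edgeR) and a log2 fold change of -1.5 in the first series of animals and -1.42 in the second. In the aorta Sfrp1 was at 207 to 274 CPM with Prdm6 deficiency and 164 to 300 CPM without, which overlap (log2 fold change 0.16, adjusted p = 0.79 by edgeR).

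Sfrp2, the most abundant of the 50 genes per kilobase, was at 1070, 801, 931, 876 and 845 CPM in Prdm6-deficient DA and between 1363 and 2485 CPM (median 1611) in control DA. The groups did not overlap, and the level was 1.96-fold lower (adjusted p = 3.0e-06 by edgeR). The aortic levels of Sfrp2 were 793 to 981 CPM with Prdm6 deficiency and 1146 to 1608 CPM without, also without overlap, but the log2 fold change of -0.52 did not pass the threshold (adjusted p = 0.012 by edgeR).

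Dkk2, a Dickkopf that binds Lrp5 and Lrp6, rose in both vessels. It was at 87.9, 57.7, 81.2, 66.9 and 54.1 CPM in Prdm6-deficient DA and between 20.8 and 36.7 CPM (median 33.2) in control DA. As for Rspo3 and Frzb, the Prdm6-deficient DA libraries of the first series (replicates 1, 5 and 6) were above those of the second (2 and 7). The log2 fold change in the DA ran from 0.82 to 1.29 over the other fits and was called in each. The aortic levels of Dkk2 were 58.6 to 77.5 CPM with Prdm6 deficiency and 37.9 to 51.7 CPM without. Neither pair of groups overlapped, and the fold was 2.21 in the DA (adjusted p = 4.0e-07) and 1.54 in the aorta (adjusted p = 0.0037, both by edgeR). The aortic call was lost in 6 of 23 fits that left out 1 library, within either series and without the Cre-carrying controls, at log2 values from 0.50 to 0.96 over all fits.

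Dkk3, a divergent Dickkopf, is counted with the antagonists by family name, also in the sums and shares. It was at 536 to 676 CPM in Prdm6-deficient DA and 340 to 497 CPM in control DA. Its log2 fold change of 0.51 lies at the fold limit (adjusted p = 2.0e-04 by edgeR). The Dkk3 call was lost with the replicate block, without the pooled samples, within either series and in 4 of 23 fits that left out 1 library, at log2 values from 0.44 to 0.56. Dkk1, an inhibitor of Lrp5 and Lrp6 that is itself a target of beta-catenin, had 0 counts in all 6 control aorta libraries and was at 1.11, 0.321, 8.41, 2.37 and 5.85 CPM in Prdm6-deficient aorta. Against a floor of 3 counts per library (0.147 CPM on average) its mean of 3.61 CPM was at least 24.5-fold higher (adjusted p = 0.0033 by edgeR). Without Prdm6-deficient aorta replicate 3 the adjusted p was 0.0102 by edgeR, outside the threshold. The Dkk1 call was also lost with the replicate block, within the second series and without the Cre-carrying controls. In the DA Dkk1 was at 0 to 2.34 CPM with Prdm6 deficiency and 0 to 1.45 CPM without.

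The shares of the antagonists shifted with these levels, which is given here as a description without a test. Sfrp2 made up 69.4 ± 2.62% (SD, n = 7) of the summed antagonist level per kilobase in control DA and 55.5 ± 1.63% (n = 5) in Prdm6-deficient DA. Sfrp1 made up 17.3 ± 2.43% and 10.4 ± 1.06%, Dkk3 11.5 ± 2.98% and 24.6 ± 2.85%, and Frzb 0.880 ± 0.180% and 6.82 ± 1.79%. The sum itself was 1180 CPM per kb in control DA, 756 in Prdm6-deficient DA, 895 in control aorta and 760 in Prdm6-deficient aorta. Among the ligands Wnt9a made up 33.6% in control DA and 12.4% in Prdm6-deficient DA, and Wnt5b 25.7% and 39.9%. Fzd1 made up 42.3% of the Frizzled level in control DA and 54.9% in Prdm6-deficient DA, beside 56.2% in control aorta.

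**Figure D3:**
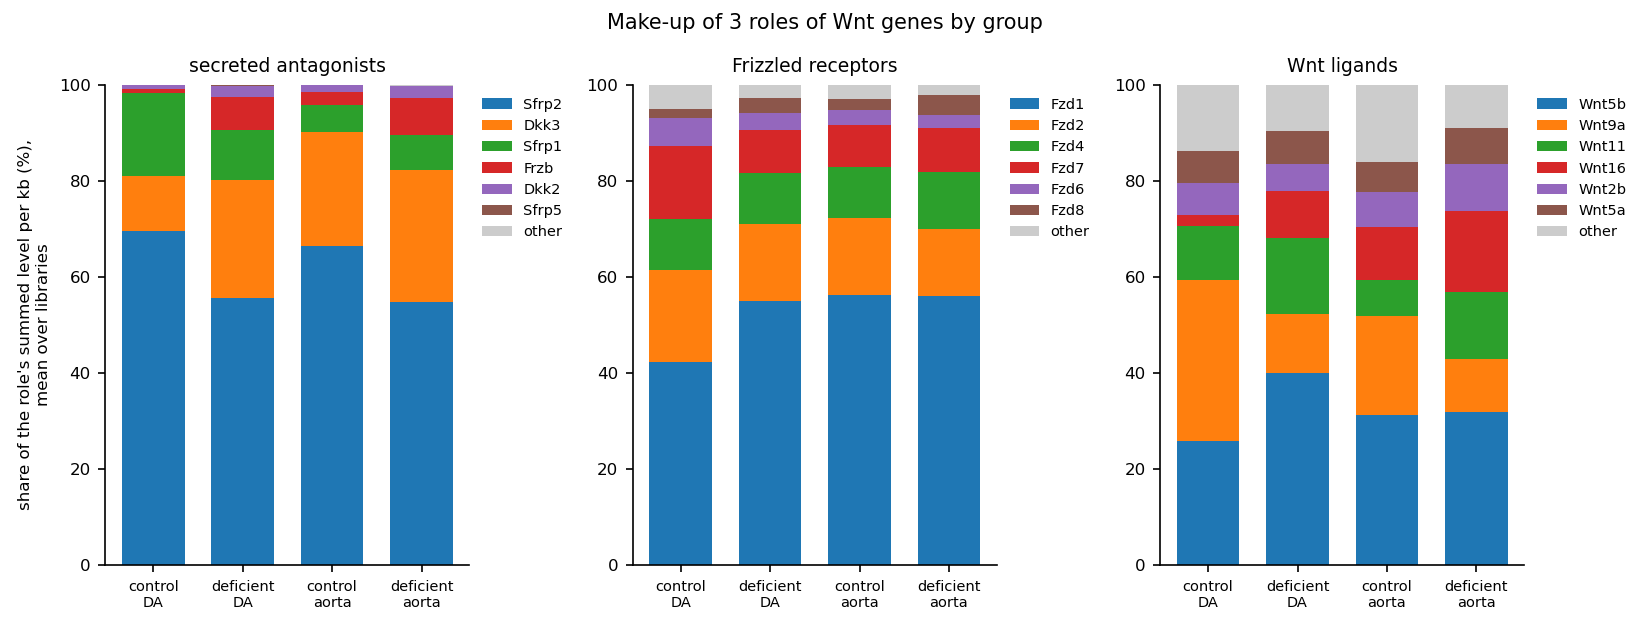
Share of each gene in the summed level per kilobase of its role (percent, mean over libraries) for the secreted antagonists, Frizzled receptors and Wnt ligands in the 4 groups. The Sfrp2 share is lower in both Prdm6-deficient groups, and the Frizzled make-up of Prdm6-deficient DA lies near that of the 2 aortic groups.

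Of the genes called in the DA, 4 that moved in opposite directions are shown, Frzb and Dkk2 up and Ror2 and Sfrp2 down. Other called genes, such as Sfrp1 and Rspo3, are not shown. Given are the stretches of 250 bases before the start of the 4 genes (RefSeq, GRCm38.p6, 5′ to 3′ on the gene's strand). They were searched on both strands for motifs of factors that act in smooth muscle or in Wnt signaling, the TEAD core CATTCC, the AP-1 motif TGANTCA, the TCF/LEF core CTTTGA and the CArG box of serum response factor. Capitals mark a match. Frzb has a TCF/LEF core on the reverse strand, 95 to 90 bases before the RefSeq start, and Ror2 an AP-1 motif 90 to 84 bases before it. Sfrp2 and Dkk2 have none of these letters in the window. For Frzb the RefSeq start lies inside the gene span given above, so that most of the window and the match fall within that span.
Frzb, chr2:80447397-80447646, minus strand: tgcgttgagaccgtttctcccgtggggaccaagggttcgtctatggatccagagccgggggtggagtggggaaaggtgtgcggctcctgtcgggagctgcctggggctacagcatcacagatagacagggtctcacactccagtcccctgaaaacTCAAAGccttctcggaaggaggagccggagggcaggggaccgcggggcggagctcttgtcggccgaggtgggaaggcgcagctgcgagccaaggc
Dkk2, chr3:132085042-132085291, plus strand: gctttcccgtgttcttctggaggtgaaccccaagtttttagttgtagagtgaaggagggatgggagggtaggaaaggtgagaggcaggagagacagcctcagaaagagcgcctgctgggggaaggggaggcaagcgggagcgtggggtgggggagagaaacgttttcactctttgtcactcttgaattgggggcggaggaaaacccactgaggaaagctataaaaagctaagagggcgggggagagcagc
Ror2, chr13:53286125-53286374, minus strand: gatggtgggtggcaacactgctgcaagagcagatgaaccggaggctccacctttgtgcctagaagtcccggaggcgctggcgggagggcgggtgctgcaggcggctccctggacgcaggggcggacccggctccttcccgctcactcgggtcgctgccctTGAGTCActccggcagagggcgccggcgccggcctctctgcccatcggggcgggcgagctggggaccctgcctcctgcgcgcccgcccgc
Sfrp2, chr3:83766071-83766320, plus strand: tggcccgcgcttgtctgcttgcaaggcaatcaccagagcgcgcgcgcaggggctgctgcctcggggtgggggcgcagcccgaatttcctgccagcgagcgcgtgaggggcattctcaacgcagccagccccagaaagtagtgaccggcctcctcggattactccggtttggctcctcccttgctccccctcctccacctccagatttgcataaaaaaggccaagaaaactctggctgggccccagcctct
Over 32851 promoter windows of this length the shares with a match were 12.6% for the TEAD core, 6.75% for AP-1, 13.8% for the TCF/LEF core and 1.47% for the CArG box. Of the 41 windows of 34 Wnt genes, 0 held the TEAD core, 2 the AP-1 motif, 7 the TCF/LEF core and 2 the CArG box. Frzb and Ror2 were the only genes called in the DA with a match in any of these windows. A match is a description of the letters and not a bound site.

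The 3 genes of the nuclear response were not called for genotype in either vessel. Axin2, a feedback inhibitor that beta-catenin switches on, was at 1.18 to 4.63 CPM in Prdm6-deficient DA and 2.12 to 5.46 CPM in control DA, and at 3.40 to 5.25 CPM and 2.29 to 5.84 CPM in the aorta. The transcription factor Tcf7 was at 3.53 to 6.05 CPM and 4.50 to 8.96 CPM in the DA, and Lef1 was at most 2.51 CPM in any library. All of these ranges overlap, and 0 of the 3 genes were called in any of the 5 comparisons by edgeR. For either genotype comparison 0 had an unadjusted p under 0.05. Between the control vessels 1 of the 3 genes did, and 1 did for the difference between the vessels in the effect of Prdm6 deficiency. DESeq2 called 0 of them in the genotype comparisons, with no adjusted p for Lef1 in the aorta. At these low levels only large changes could be detected.

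The comparison of control DA with control aorta asked how the vessels differ before any deletion. Sfrp1, Ror2, Rspo3, Fzd6, Fzd7 and Ror1 were higher in the DA, and Wnt16, Frzb, Dkk3, Fzd1 and Dkk2 were lower. These 11 of 38 genes, 6 higher and 5 lower, stand beside 5.36% of all tested genes called (3.16% higher and 2.19% lower). The groups did not overlap for 10 of the 38, beside 5.36% of all tested genes. Sfrp1 was 4.13-fold higher in the DA (adjusted p = 6.9e-10) and Ror2 2.83-fold higher (adjusted p = 3.4e-08), while Wnt16 was 5.42-fold lower (adjusted p = 4.3e-04) and Frzb 2.37-fold lower (adjusted p = 1.6e-05, all by edgeR). Fzd6 was at 37.3 to 60.1 CPM in control DA and 26.3 to 35.6 CPM in control aorta (adjusted p = 8.6e-04 by edgeR). Both this comparison and the genotype comparisons use the control libraries, so that their values are not independent. With the animal as a block, since 6 control animals gave both vessels, 9 genes were called and Ror1 and Dkk2 were not. Within the first series, which holds 1 control aorta library, Sfrp1 and Ror2 alone were called. Without control aorta replicate 4, which had the highest melanocyte marker sum and the highest Sfrp1 level of its group, the log2 difference of Sfrp1 was 2.16 in place of 2.05.

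Between the vessels of Prdm6-deficient embryos 0 of 38 Wnt genes were called by edgeR and 0 by DESeq2, beside 0.267% of all tested genes (0.152% higher and 0.115% lower), and 8 had an unadjusted p under 0.05. The groups did not overlap for Wnt10b, Sfrp1, Rspo2 and Wnt16, beside 3.52% of all tested genes. Sfrp1 was at 314 to 366 CPM in Prdm6-deficient DA and 207 to 274 CPM in Prdm6-deficient aorta, a log2 difference of 0.49 ± 0.16 SE (adjusted p = 0.19 by edgeR). Ror2 was at 19.2 to 26.4 CPM and 21.8 to 30.1 CPM, which overlap. With the animal as a block over the embryos that gave both vessels, a fit added after seeing the data, 0 of 38 were again called, and the log2 difference of Sfrp1 was 0.49 (adjusted p = 0.30 by edgeR).

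**Figure D4:**
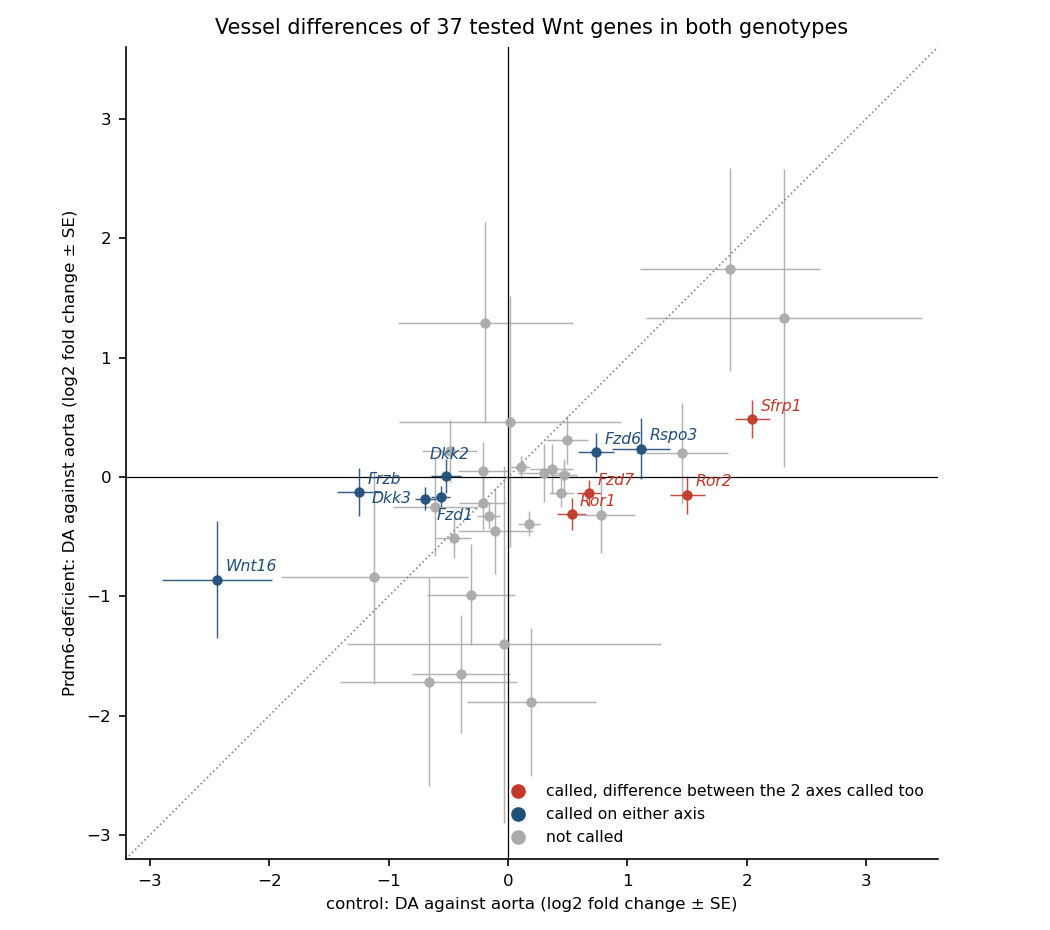
Log2 difference of DA against aorta in control embryos (horizontal axis) and in Prdm6-deficient embryos (vertical axis) for 37 tested Wnt genes, each with its SE, without Dkk1. Sfrp1 lies at 2.05 and 0.49 and Ror2 at 1.5 and -0.15, while Wnt16 lies at -2.44 and -0.86.

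Whether Prdm6 deficiency acted differently on the vessels was tested as the genotype difference in the DA minus that in the aorta. It was called for 4 of 38 Wnt genes, Ror2, Sfrp1, Ror1 and Fzd7, all lower, beside 2.58% of all tested genes (0.917% higher and 1.66% lower). Ror2 had a log2 value of -0.98 in the DA and 0.68 in the aorta, a difference of -1.65 ± 0.22 SE (adjusted p = 1.8e-05 by edgeR). Sfrp1 had -1.40 and 0.16, a difference of -1.56 ± 0.21 (adjusted p = 2.6e-05 by edgeR). Fzd7 had -0.66 and 0.15, a difference of -0.81 (adjusted p = 8.0e-04), and Ror1 -0.08 and 0.77, a difference of -0.84 (adjusted p = 0.0038, both by edgeR). For Frzb the difference was 1.12 with an adjusted p of 0.012, and for Rspo3 -0.88 with an adjusted p of 0.18, outside the threshold for both. With the animal as a block (added after seeing the data) 3 Wnt genes were called, Ror2 (-1.62), Sfrp1 (-1.44) and Rspo3 (-1.23, adjusted p = 0.0090), while Ror1 (-0.89, adjusted p = 0.012) and Fzd7 (-0.70, adjusted p = 0.034, all by edgeR) were not. The Ror1 call was also lost without the pooled samples and in 4 of 23 fits that left out 1 library. The median over the 38 was -0.32, and that of all tested genes 0.01. Within the first series, with 1 control aorta library, 0 of the 4 were called, and within the second Ror2, Sfrp1 and Ror1 were called at -1.57, -1.63 and -1.15.

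Of 51 other genes of the pathway (transducers, R-spondin receptors, polarity genes and further inhibitors and targets), 45 were tested. In the DA 4 rose and 4 fell (17.8%, beside 5.43% of all tested genes). The aorta had 1 higher and 2 lower (6.67%, beside 2.45%). Between the control vessels 5 were higher and 2 lower in the DA (15.6%, beside 5.36%). Between the Prdm6-deficient vessels 0 were called by edgeR, beside 0.267% of all tested genes, and 8 of the 45 had an unadjusted p under 0.05. The difference between the vessels in the effect of Prdm6 deficiency was called for 4, 1 higher and 3 lower (8.89%, beside 2.58%). The median log2 fold change of the 45 was -0.07 in the DA and 0.01 in the aorta. A list of 15 canonical target genes, which shares members with these lists, had 12 tested. Of the 12, Nkd1 and Apcdd1 fell in the DA (16.7%, beside 5.43% of all tested genes). Dkk1 rose in the aorta (8.33%, beside 2.45%). Between the control vessels Nkd1 and Apcdd1 were higher in the DA (16.7%, beside 5.36%), and between the Prdm6-deficient vessels 0 of the 12 were called (beside 0.267%). The difference between the vessels in the effect of Prdm6 deficiency was called lower for Nkd1 and Apcdd1 (16.7%, beside 2.58%). For that difference 6 of the 12 had an unadjusted p under 0.05 by edgeR, and the median log2 value was -0.72. In the DA Apcdd1, a membrane inhibitor of Wnt signaling, was at 8.60, 10.2, 11.4, 9.95 and 8.54 CPM with Prdm6 deficiency and between 41.4 and 95.9 CPM (median 65.7) without. It fell by 2.81 on the log2 scale (adjusted p = 3.2e-08 by edgeR). In the aorta it was at 4.24 to 10.2 CPM and 4.06 to 12.2 CPM, and the difference between the vessels was called (adjusted p = 1.8e-05 by edgeR).

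Nkd1, a feedback inhibitor that binds Dishevelled, showed a like pattern, at 64.5 to 69.9 CPM in Prdm6-deficient DA, 110 to 212 CPM in control DA and 58.0 to 79.8 CPM in control aorta (log2 fold change -1.14 in the DA, adjusted p = 1.7e-06 by edgeR). Lgr6, an R-spondin receptor, fell in the DA (-1.08) and the aorta (-0.85), and so did Cthrc1, a secreted Wnt cofactor (-1.20 and -0.82, all log2 and called by edgeR). Sost, which blocks Lrp5 and Lrp6, was at 748 to 859 CPM in Prdm6-deficient DA, 64.1 to 564 CPM in control DA and 869 to 1322 CPM in control aorta. It rose in the DA (log2 fold change 1.49, adjusted p = 0.0020 by edgeR). The value stayed between 1.31 and 1.74 in every other fit, and the call was lost with only DA libraries, without the pooled samples and within either series. Of the polarity effectors, Daam1 rose in the DA (0.79) and Daam2 rose in the aorta (0.85), and the difference between vessels was called for both. Tspan12, a Frizzled partner, and Prickle2 rose in the DA (0.81 and 0.50), and the call of Tspan12 was lost without Prdm6-deficient DA replicate 1 (adjusted p = 0.027 by edgeR). Prickle2 lies at the fold limit and lost its call in 9 of 11 other settings. These 9 genes were picked from the list because they were called.

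**Figure D5:**
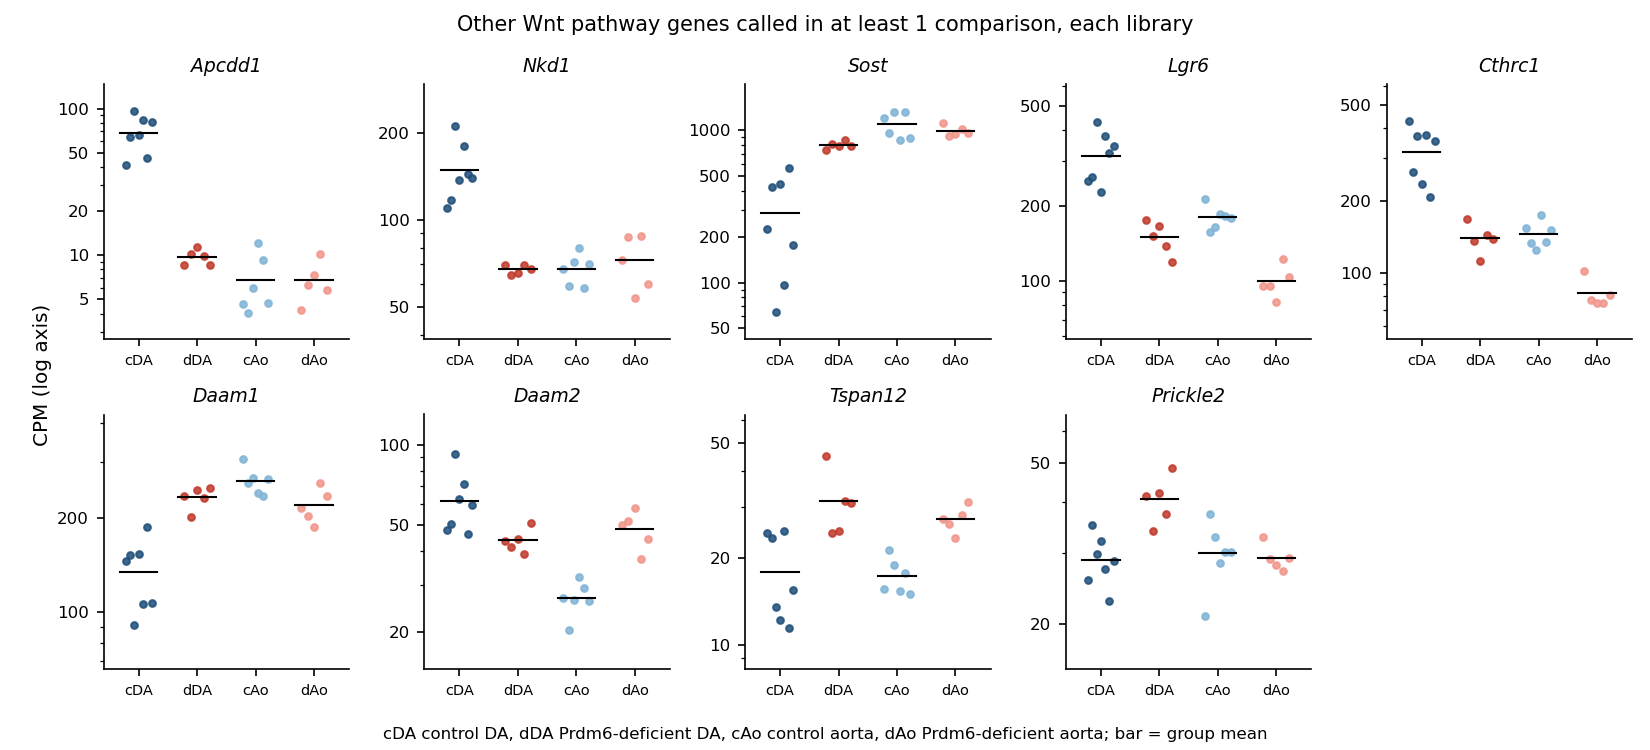
Level of the 9 other Wnt pathway genes called in at least 1 comparison, as CPM on a log axis, 1 point per library and a bar at the group mean. Apcdd1 and Nkd1 are high in control DA and low in the other 3 groups, and Sost is low in control DA.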

How the data were processed

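RNA was taken from microdissected DA and ascending aorta (RIN above 9). Per the labels and the study's methods, the authors filtered the reads by quality and adapter content, aligned them with STAR to mm10 and counted genes with RSEM against GENCODE (tool versions not given in the sources used here). The values deposited by the authors are expected counts per gene and library. They were rounded to whole numbers, all 23 columns were matched to a sample by name, and 0 columns were left unmatched. Of the 54752 identifiers, 54723 matched a gene symbol without regard to version and 29 did not.

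Counts were filtered by expression, scaled by TMM and fitted across all 4 groups with edgeR 4.0.16 (R 4.3.3, quasi-likelihood test), with Benjamini-Hochberg adjustment over all 16463 tested genes. Calls were made at an adjusted p under 0.01 with a log2 change above 0.5 in size. The 5 comparisons were genotype within each vessel, vessel within each genotype, and their interaction. The count script was tested on simulated data, and after a first run missed its own recovery limit this test was confined to genes of higher level and its limit restated for larger changes. DESeq2 1.42.0, other filters and scalings, blocks, series and left-out libraries were tried as alternatives.

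Vessels of 1 animal were matched by the animal numbers in the labels, and deviations from the group means correlated at -0.02 to 0.08 over the 6 control pairs. The animal block over both genotypes was added after seeing the data. The members and lists were chosen with earlier results of these data known. The genes named are the 24 that were called in at least 1 comparison, were highest per kilobase of their role, or are Wnt1, Axin2, Lef1 or Tcf7. Fzd6, Wnt11, Lrp6 and the other pathway genes were named, where not called, after their values were seen. P-values set a difference between groups against the spread between samples, estimated over all 4 groups in the main fit. That fit treats each library as independent, also vessels of the same embryo and pools of 2 embryos. Floors cover counting error only. Whether counting used the strand is not stated, so reads of overlapping antisense genes cannot be told apart.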

Additional observations from a re-analysis of the deposited data

Results flagged for a closer look

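In 91 groups of 5 to 7 libraries the gap between the highest or lowest library and its nearest neighbour, divided by the range of the group, was set against Dixon's critical value, at which chance flags about 1 in 20 groups. It was above that value in 7 groups. Dkk1 was at 1.45 CPM in control DA replicate 7, where the other control DA libraries lay between 0 and 0.152 CPM. Dkk3 was at 625 CPM in control aorta replicate 4, against 712 to 747 CPM in the others. Fzd6 was at 35.6 CPM in control aorta replicate 5, against 26.3 to 28.6 CPM. Lef1 was at 1.62 CPM in control DA replicate 6, against 0 to 0.626 CPM, and Wnt9a at 39.9 CPM in the same library, against 25.1 to 31.5 CPM. Sfrp2 was at 1608 CPM in control aorta replicate 1, against 1146 to 1303 CPM. Wnt9a was at 18.9 CPM in Prdm6-deficient aorta replicate 4, against 11 to 12.5 CPM.

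The genotype difference in the DA minus that in the aorta passed the test for Ror2 (log2 -1.65), Sfrp1 (-1.56), Ror1 (-0.84) and Fzd7 (-0.81), all by the edgeR interaction term.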

How the results depend on the processing

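The sign of the log2 fold change did not change for any called Wnt gene under the settings tried. Calls held under every setting and left-out library for 5 of 13 Wnt genes in the DA (Rspo3, Dkk2, Frzb, Sfrp1, Sfrp2), 1 of 9 in the aorta (Rspo3), 2 of 11 between the control vessels (Ror2, Sfrp1) and 0 of 4 for the interaction. At an adjusted p below 0.05 without a fold limit, 2036 genes were called in the DA, 829 in the aorta, 1869 between control vessels, 149 between Prdm6-deficient vessels and 856 for the interaction, 9 of them Wnt genes. DESeq2 called 137 genes between Prdm6-deficient vessels and 8 Wnt genes for the interaction. With only the groups compared, 702 genes were called in the aorta and 83 between Prdm6-deficient vessels. The aortic calls of that fit held 12 Wnt genes, 9 higher and 3 lower. Within the first series the counts were 333 genes and 6 Wnt genes in the DA, 25 and 1 in the aorta, 101 and 2 between control vessels, 2 genes between Prdm6-deficient vessels, and 0 and 0 for the interaction. Within the second they were 383 and 6, then 217 and 5, with 7 genes between Prdm6-deficient vessels and 169 for the interaction. With the animal as a block over embryos of both genotypes, 11 genes were called between Prdm6-deficient vessels and 238 for the interaction. Without the pooled samples 15 genes were called between Prdm6-deficient vessels, and without the Cre-carrying controls 5 Wnt genes in the aorta. Leaving out 1 library gave 784 to 948 genes and 12 to 15 Wnt genes in the DA, 325 to 441 and 5 to 11 in the aorta, 775 to 963 and 9 to 14 between control vessels, 22 to 58 and 0 between Prdm6-deficient vessels, and 359 to 490 and 3 to 5 for the interaction. The causes of these changes were not tested, and the fits within a series compare fewer samples.

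Same-numbered samples of the genotype groups shared only a number (correlation of deviations -0.05 to 0.13 over 10 pairs). With the replicate block 12 Wnt genes were called in the DA, 6 in the aorta, 10 between control vessels, 0 between Prdm6-deficient vessels and 5 for the interaction, and 16 of all genes between Prdm6-deficient vessels. With series as a covariate 13 Wnt genes were called in the DA, 11 between control vessels and 4 for the interaction. In the aorta 6 were called with this covariate, and Rspo2, Lrp5 and Ror2 were not. Genes with 0 counts in some libraries and well above 3 counts in others, such as Dkk1 and Lef1, allow only large differences to be detected.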
